A study of Bos taurus with 4 samples.

Results

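Progesterone synthesis was described here through 8 genes, STAR, CYP11A1, HSD3B1, FDX1, FDXR, POR, SCARB1 and HSD11B1, in granulosa cells of Holstein cows. The members are all probes that the platform's annotation gives to these symbols. They were 12 of the 43794 probes on the array and covered 7 of the 8 genes, among 15216 genes named on the array, with 3 probes for STAR, 4 for HSD11B1 and 1 each for the other 5. No probe carried the symbol FDXR.

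The study set cows whose oocytes were mostly competent to form embryos (good donors) against cows whose oocytes mostly were not (poor donors), and asked which granulosa cell transcripts differ. The 94 animals, all Holstein and without a stated age, had been given ovarian stimulation followed by coasting, a gonadotrophin-free interval before aspiration, so both donor groups share that treatment. RNA was pooled within a donor group into 4 good-donor pools (1 to 4) and 4 poor-donor pools (5 to 8), and each of 4 two-colour arrays held 1 pool of each kind. The good-donor RNA carried Cy5 and the poor-donor RNA Cy3 on array 1 (pools 1 and 5) and array 2 (pools 2 and 6). The dyes were the other way round on array 3 (pools 3 and 7) and array 4 (pools 4 and 8). The labels do not say how many cows entered a pool, and no p-value here measures the spread between cows. A limma p-value rests on the spread of the ratio between arrays of the same dye orientation, together with the spread over all tested probes. As the cells were measured in bulk, fewer cells of a type and less RNA per cell cannot be told apart.

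Progesterone is made from cholesterol in a short chain of steps. SCARB1 is the receptor that takes up cholesterol from high-density lipoprotein, and STAR, the steroidogenic acute regulatory protein, moves cholesterol to the inner mitochondrial membrane. There CYP11A1 cleaves the side chain to give pregnenolone, with electrons passed from the reductase FDXR through the small iron-sulphur protein FDX1, and HSD3B1 turns pregnenolone into progesterone. POR is the electron donor of microsomal cytochromes P450, aromatase among them, and HSD11B1 converts cortisone to cortisol. Granulosa cells of the growing follicle mainly make oestradiol, and progesterone output rises as they luteinize after the surge of luteinizing hormone, when STAR is induced.

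In these pools STAR varied more than the rest of the chain. Its level spanned 26.3-fold from the highest to the lowest of the 8 pools, where that of HSD3B1 spanned 4.14-fold, FDX1 2.15-fold, CYP11A1 2.01-fold, POR 1.57-fold and SCARB1 1.49-fold. On the log2 scale HSD3B1 spanned 2.05, FDX1 1.11 and CYP11A1 1.01. Over all tested probes the median span was 0.46 and the 95th percentile 1.16, so these genes were not steady either. The STAR differences ran both ways between donor groups, so that the poor over good log2 ratio averaged 0.72 ± 3.09 (SD, n = 4 arrays). None of the 10 tested member probes passed the adjusted threshold between donor groups, where 0% of all 26132 tested probes did.

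STAR levels are given for probe EMBV3_03849, the brightest of its 3 probes, as log2 normalized intensity. In the good-donor pools they were 12.42 in pool 1, 8.50 in pool 2, 8.97 in pool 3 and 10.60 in pool 4, and in the poor-donor pools 9.91 in pool 5, 10.77 in pool 6, 13.22 in pool 7 and 9.46 in pool 8. Each donor group thus held pools of high and of low STAR, and the groups overlapped between 9.46, the lowest poor-donor pool, and 12.42, the highest good-donor pool. The SD was 1.77 over the 4 good-donor pools and 1.68 over the 4 poor-donor pools, against medians of 0.14 in either group over all tested probes. The raw spot intensity ranged from 274 in pool 2 to 6626 in pool 7, and all 8 pools were above background. Pools 1, 2, 7 and 8 were read in Cy5 and pools 3 to 6 in Cy3, and a level set across the dyes can hold a dye bias of the probe. Within Cy5 alone the order of STAR levels was pool 7, 1, 8 and 2, and within Cy3 alone pool 6, 4, 5 and 3. Each pool was measured once, so neighbours in these orders have no spread of their own against which to tell them apart.

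**Figure D1:**
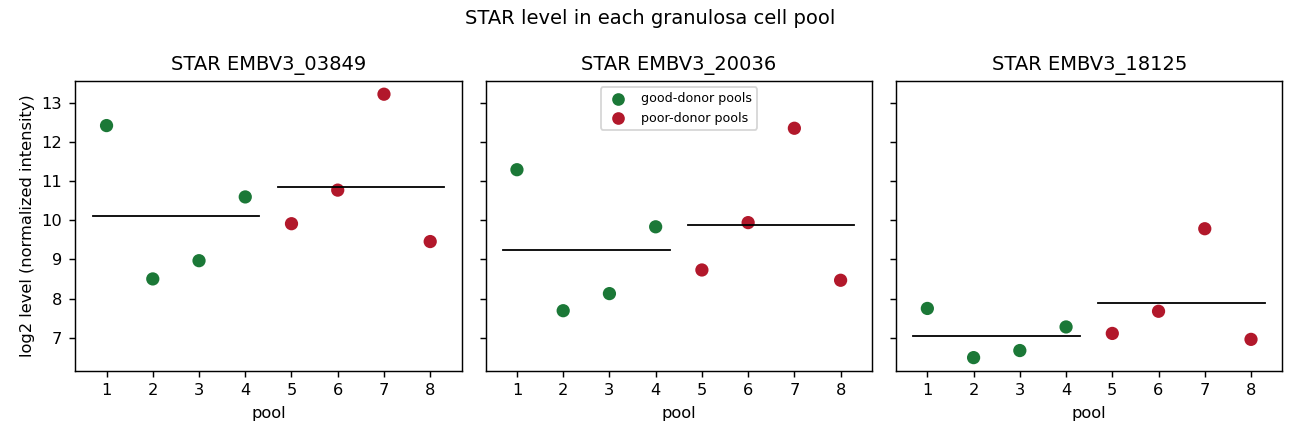
The log2 level of each of the 3 STAR probes (vertical axis, normalized intensity) is plotted for good-donor pools 1 to 4 in green and poor-donor pools 5 to 8 in red, with a black line at each group's mean. In all 3 panels pool 7 was highest, pool 1 second and pool 2 lowest, and levels are comparable within a panel only.

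The other STAR probes gave the same order of all 8 pools, which was pool 7, 1, 6, 4, 5, 8, 3 and 2 from the highest to the lowest. Probe EMBV3_20036 ran from 7.69 to 12.35 on the log2 scale, a span of 25.2-fold. The third probe, EMBV3_18125, was dimmer and ran from 6.49 to 9.78, a span of 9.78-fold. Its raw intensity was 54 in pool 2, where the background threshold of that channel was 49.3, and the offset used in background correction draws ratios of dim probes towards 0.

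On the arrays themselves, which compare pools on the same spot, the STAR ratio of probe EMBV3_03849 was -2.50 on array 1, 2.27 on array 2, 4.25 on array 3 and -1.14 on array 4, as log2 of poor over good. In linear terms STAR was 5.67-fold lower in poor-donor pool 5 than in good-donor pool 1 and 2.20-fold lower in pool 8 than in pool 4. It was 4.81-fold higher in pool 6 than in pool 2 and 19.0-fold higher in pool 7 than in pool 3. Probe EMBV3_20036 had ratios of -2.56, 2.25, 4.22 and -1.36, and probe EMBV3_18125 had -0.64, 1.18, 3.11 and -0.32. All 3 STAR probes were therefore lower, higher, higher and lower in poor donors on arrays 1 to 4, a sequence of signs shared by 5.87% of all tested probes.

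The fitted poor over good difference of STAR was 0.72 for probe EMBV3_03849, with a 95% interval from -2.47 to 3.91 (limma adjusted p = 0.952). It was 0.64 for EMBV3_20036 (limma adjusted p = 0.960) and 0.83 for EMBV3_18125 (limma adjusted p = 0.888). For the brightest probe the interval reaches from 0.180-fold to 15.0-fold, so the arrays do not settle whether STAR is higher or lower in poor donors. A two-sided exact sign-flip permutation test over the 4 arrays gave p = 0.75, where 0.125 is the smallest p that 4 arrays allow. The mean ratio was -0.12 over arrays 1 and 2 and 1.55 over arrays 3 and 4. Without array 3 the fitted difference was -0.63 and without array 2 it was -0.47, so its sign turned in either fit. In such a fit the dye term gives the lone array of a dye orientation the weight of both arrays of the other. Without array 2 the sign turned through this weighting, as the plain mean of the remaining ratios is positive.

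A ratio of at least 2-fold in either direction on all 4 arrays was reached by 2 of the 3 STAR probes and by 0.0995% of all tested probes, which is 26 probes. In the spread of the ratio over arrays, the SD was 3.14 for EMBV3_20036, 3.09 for EMBV3_03849 and 1.71 for EMBV3_18125, where the median over all tested probes was 0.20. From the largest SD downwards these probes ranked at 6, 7 and 64 of 26132. These ranks describe the probes only, since STAR was chosen with its spread known. Among the other members, the ratio SD was above that of 98.8% of all tested probes for HSD3B1. It was above that of 96.6% for CYP11A1 and of 93.1% for FDX1.

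**Figure D2:**
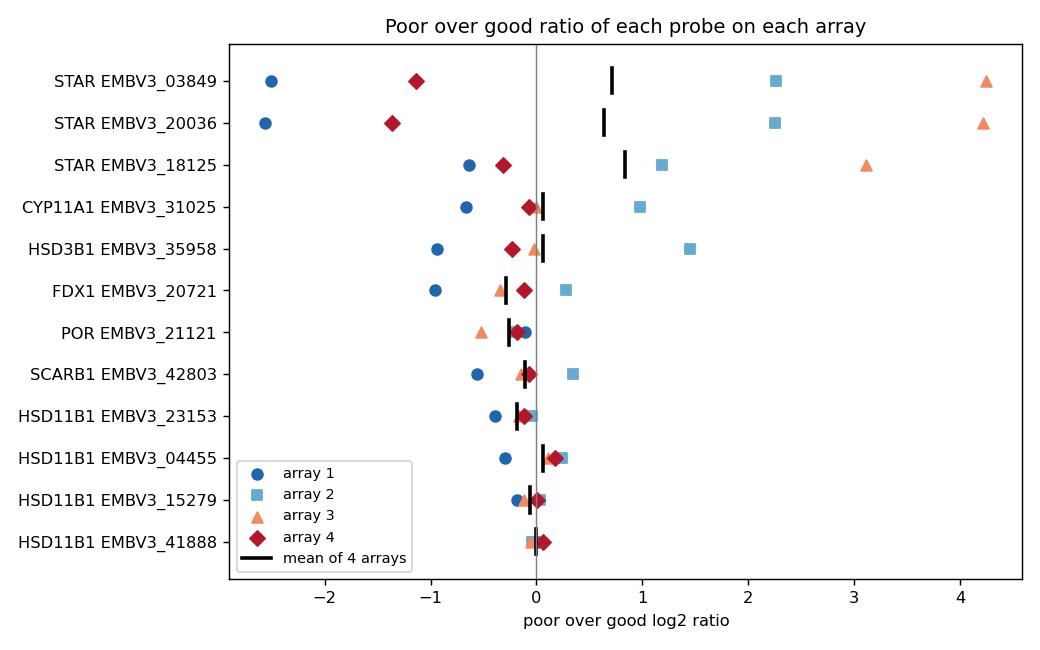
Log2 ratios of poor over good donors (horizontal axis) are plotted for the 12 probes (vertical axis), with a symbol for each of the 4 arrays and a black bar at their mean. The ratios of STAR probe EMBV3_03849 run from -2.50 to 4.25, while those of POR stay between -0.52 and -0.11.

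The enzyme that uses the cholesterol brought in by STAR is CYP11A1. Its level was 13.64, 12.63, 13.21 and 13.57 in good-donor pools 1 to 4 and 12.97, 13.61, 13.21 and 13.50 in poor-donor pools 5 to 8 (log2). Pool 2 was lowest and the donor groups overlapped. Pool 1 was highest here, but with quantile normalization of all channels it stood at 13.64, below pool 6 at 13.72 and pool 4 at 13.66. The poor over good ratio was -0.67 on array 1, 0.98 on array 2, -0.00239 on array 3 and -0.07 on array 4, with a mean of 0.06 ± 0.68 (SD, n = 4; limma adjusted p = 0.985). On array 3, where STAR was 19.0-fold higher in the poor-donor pool, CYP11A1 was 1.00-fold between the same 2 pools. Its fitted difference was -0.35 without array 2 and 0.47 without array 1, and it turned to -0.02 with median centring in place of loess.

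HSD3B1, which makes the progesterone itself, varied most after STAR. It stood at 12.35, 10.30, 11.35 and 11.45 in good-donor pools 1 to 4 and at 11.41, 11.74, 11.33 and 11.22 in poor-donor pools 5 to 8 (log2 level). The spread lay in the good-donor pools, whose SD was 0.84 against 0.23 in the poor-donor pools, with pool 1 highest and pool 2 lowest of all. The other 6 pools lay between 11.22 and 11.74. The ratio was -0.94, 1.45, -0.02 and -0.23 on arrays 1 to 4 and averaged 0.07 ± 1.00 (SD, n = 4; limma adjusted p = 0.989). The fitted difference was -0.53 without array 2 and 0.66 without array 1, and with mean in place of median spot intensities it was -0.04.

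FDX1, the electron carrier of CYP11A1, had log2 levels of 11.95, 10.84, 11.54 and 11.14 in good-donor pools 1 to 4. In poor-donor pools 5 to 8 the levels were 10.99, 11.12, 11.20 and 11.01. The poor-donor pools lay within the range of the good-donor pools, and pools 1 and 3 stood above all of them. The ratio was -0.96, 0.28, -0.34 and -0.12 on arrays 1 to 4 and averaged -0.29 ± 0.52 (SD, n = 4; limma adjusted p = 0.886). Without array 1 the fitted difference was 0.02.

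SCARB1, at the start of the chain, had log2 levels of 10.77, 10.22, 10.34 and 10.36 in good-donor pools 1 to 4 and of 10.21, 10.56, 10.19 and 10.29 in poor-donor pools 5 to 8. Pool 1 was again the highest, followed by pool 6, and the groups overlapped. The ratio was -0.56, 0.34, -0.15 and -0.07 on arrays 1 to 4 and averaged -0.11 ± 0.37 (SD, n = 4; limma adjusted p = 0.948). Without array 1 the fitted difference was 0.12.

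**Figure D3:**
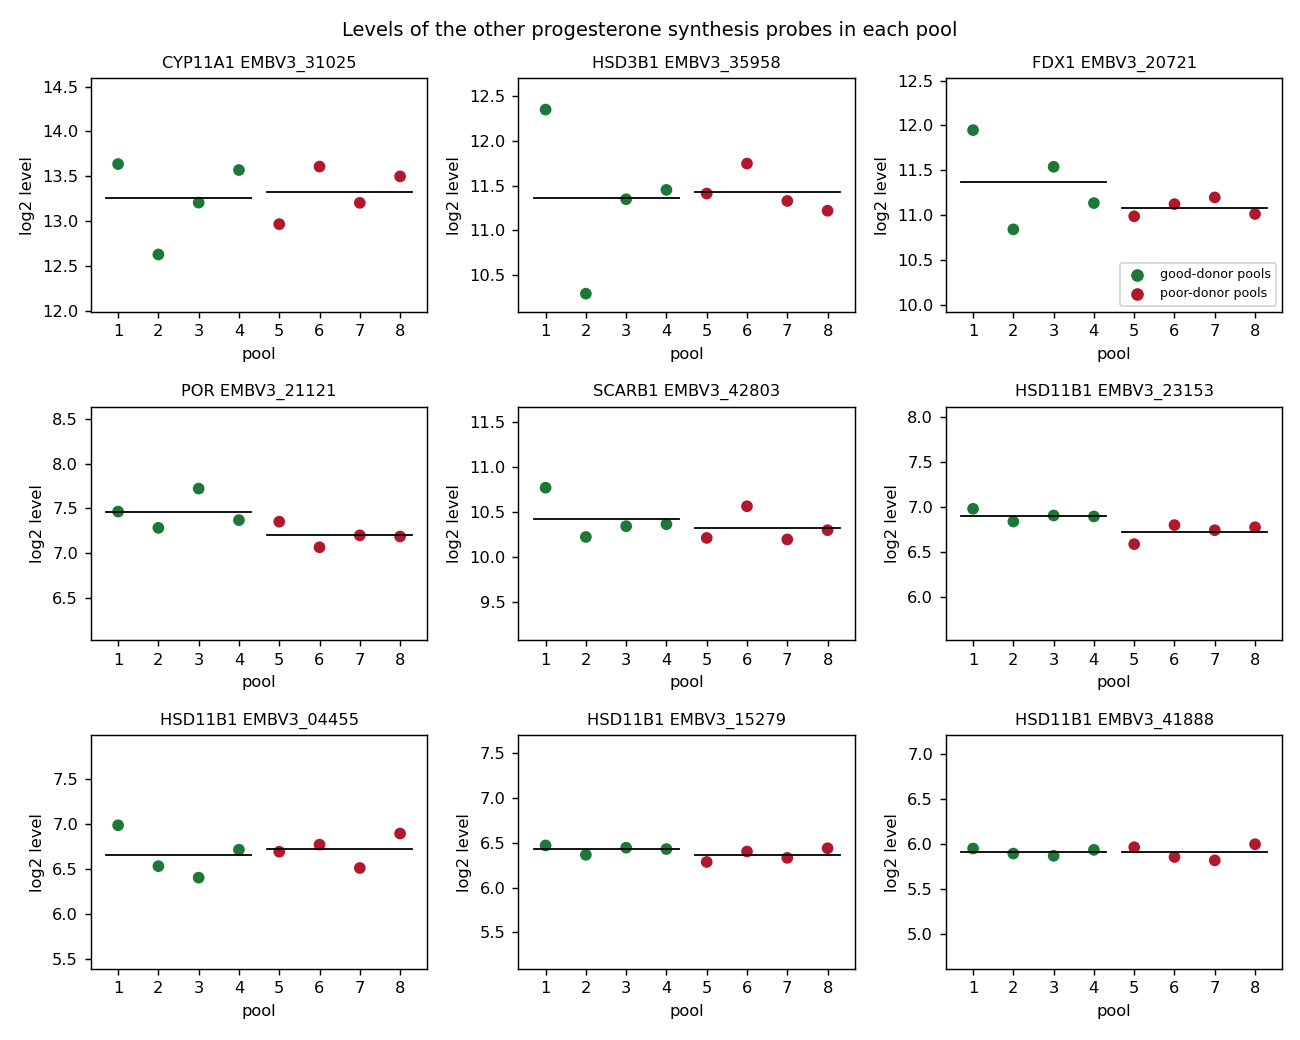
Log2 levels (vertical axis, a window of equal height in each panel) of the 9 probes other than STAR are plotted for good-donor pools 1 to 4 in green and poor-donor pools 5 to 8 in red, with a black line at each group's mean. Pool 2 was lowest for CYP11A1, HSD3B1 and FDX1, and pool 1 was highest for HSD3B1 and FDX1.

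The arrays differed in whether these genes went along with STAR. Of the 7 tested probes of the other members, all 7 had the sign of STAR on array 1, where 50.3% of all tested probes did. On array 2 it was 5 of 7, against 50.2% of all probes. On array 3, which held the widest STAR ratio, 1 of 7 had its sign, against 50.3% of all probes, and that probe was EMBV3_04455 of HSD11B1, at 0.11. On array 4 it was 6 of 7, against 50.6% of all probes. The median ratio of these 7 probes was -0.56 on array 1, 0.28 on array 2, -0.15 on array 3 and -0.12 on array 4. CYP11A1, HSD3B1, FDX1 and SCARB1 each shared the sign of STAR on 3 of 4 arrays, as did 29.1% of all tested probes on at least 3. Array 3 was the exception for all 4 genes, at -0.00239 for CYP11A1, -0.02 for HSD3B1, -0.34 for FDX1 and -0.15 for SCARB1. The SD over all tested probes on that array was 0.37. A ratio near 0 thus counts as of the other sign, and CYP11A1 and HSD3B1 barely differed between the pools of array 3. The shared signs on array 4 also rest on small ratios. There CYP11A1 had -0.07, HSD3B1 -0.23, FDX1 -0.12 and SCARB1 -0.07, where the SD over all tested probes was 0.28. Because probes of these arrays share a pool pair, the counts are not independent of each other.

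POR varied between arrays about as much as the median probe, as 43.7% of tested probes had a smaller SD of the ratio. Its log2 levels were 7.47, 7.28, 7.72 and 7.37 in good-donor pools 1 to 4 and 7.35, 7.07, 7.20 and 7.19 in poor-donor pools 5 to 8. Pool 5 was the only poor-donor pool above the lowest good-donor pool, so the groups overlapped by that pool. POR was lower in poor donors on all 4 arrays, at -0.11, -0.22, -0.52 and -0.18, as were 5.89% of all tested probes. The mean was -0.26 ± 0.18 (SD, n = 4), with a 95% interval of the fitted difference from -0.48 to -0.03 (limma adjusted p = 0.827). A two-sided exact sign-flip permutation test gave p = 0.125, the smallest that 4 arrays allow. POR was the only tested member probe whose unadjusted limma p was under 0.05, a level reached by 5.98% of all tested probes. The fitted value corresponds to a 1.20-fold difference and did not reach the 1.5-fold of the looser threshold, where 0 of 10 tested member probes and 0.321% of all tested probes passed. With mean in place of median spot intensities the fitted difference was -0.14. Raw POR intensities were 84 to 265.

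HSD11B1 had 4 probes, which did not give the same picture. Probe EMBV3_23153, the brightest, had log2 levels of 6.98, 6.84, 6.91 and 6.90 in good-donor pools 1 to 4 and 6.59, 6.80, 6.74 and 6.78 in poor-donor pools 5 to 8. Every good-donor pool stood above every poor-donor pool on this probe, with a gap of 0.04, and 2.22% of all tested probes had groups that did not overlap. Its ratio was -0.39, -0.04, -0.16 and -0.12 on arrays 1 to 4 and averaged -0.18 ± 0.15 (SD, n = 4; limma adjusted p = 0.8294). With mean spot intensities its fitted difference was -0.040, and without array 1 it was -0.09. Probe EMBV3_04455 had ratios of -0.29, 0.24, 0.11 and 0.18, a mean of 0.06 ± 0.24 and overlapping groups (limma adjusted p = 0.959). The remaining 2 probes were too dim to be tested. EMBV3_15279 was above background in 3 good-donor and 2 poor-donor pools, with ratios of -0.18 to 0.04. EMBV3_41888 was not above background in any pool.

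The genes whose level over the 8 pools lay closest to that of STAR were STEAP1, GFPT2, XIRP1, TIMP1, BMP2 and FSTL3. Each gene was taken at its tested probe closest to STAR. Closeness was the mean absolute difference between centred log2 levels, which was 0.27 for STEAP1, a metalloreductase, and 0.29 for GFPT2, an enzyme of hexosamine synthesis. It was 0.36 for XIRP1, an actin-binding protein, and 0.36 for TIMP1, an inhibitor of matrix metalloproteinases. BMP2, a secreted growth factor, was at 0.40 and FSTL3, a binding protein of activins, at 0.43. For comparison the second STAR probe was at 0.13, HSD3B1 at 0.96 and CYP11A1 at 1.10, and a gene with no variation at all would be at 1.27. HSD3B1 took rank 103 among 10958 genes, CYP11A1 308, FDX1 511, SCARB1 782 and POR 9141. The poor over good ratio of TIMP1, at probe EMBV3_22371, was -2.48, 2.61, 4.98 and -1.88 on arrays 1 to 4. Its brighter probe EMBV3_32067 had -2.04, 2.66, 4.47 and -1.93. The ratio of GFPT2 was -2.45, 2.14, 3.54 and -1.93, that of BMP2 -1.53, 1.35, 3.80 and -1.69. All 8 pools are shared by these comparisons, and the likeness is given as a description of the pools. Of the 26 probes with a ratio of at least 2-fold on all 4 arrays, 20 had the signs of STAR, against 5.87% of all tested probes. The 20 include the 2 STAR probes themselves, which share these signs by definition.

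**Figure D4:**
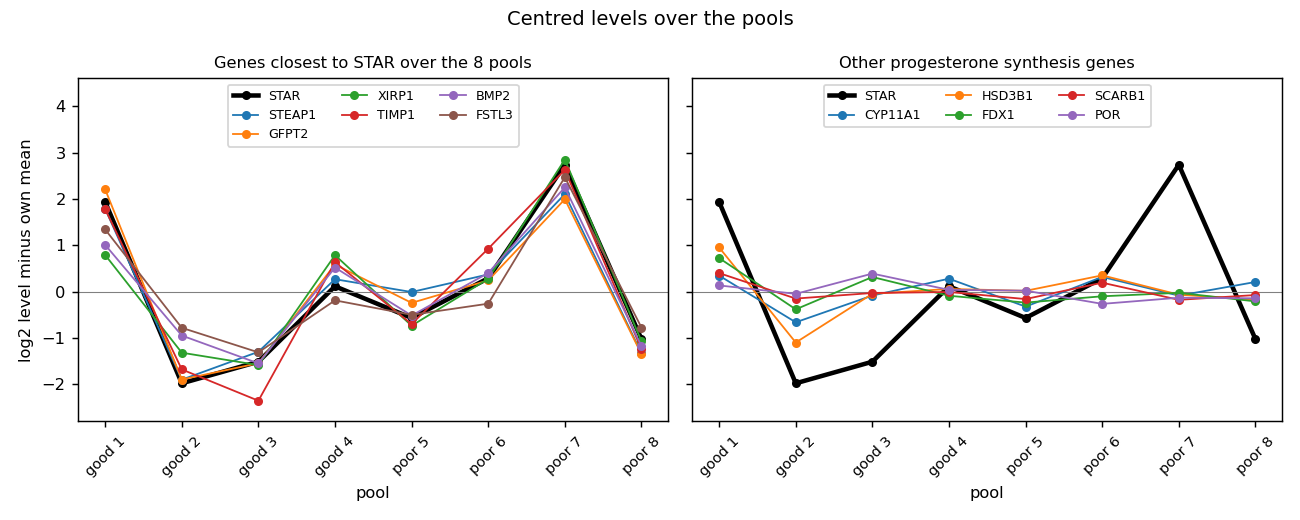
Log2 levels minus each gene's own mean (vertical axis) are drawn over the 8 pools, with STAR as the thick black line in both panels, the 6 closest genes on the left and CYP11A1, HSD3B1, FDX1, SCARB1 and POR on the right. STEAP1 and GFPT2 had the smallest mean distance from STAR, at 0.27 and 0.29, whereas in pool 7 the genes on the right lie near 0.

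STAR and CYP11A1 are also used by theca cells, the steroidogenic layer outside the follicle wall, and STAR is strong in luteal cells. All 11 granulosa cell markers had a probe and 10 of them were above background in all 8 pools, with mean log2 levels of 11.01 to 11.27 in good-donor and 10.99 to 11.23 in poor-donor pools. CYP17A1, the theca enzyme that makes androgens, spanned 6.42 to 6.52 over the pools, with raw intensities of 43 to 53 in Cy5, near the background threshold. The 11 theca markers had a mean level of 8.48 to 9.32 in good-donor and 8.95 to 9.48 in poor-donor pools, with 9.32, 8.90, 8.48 and 8.78 in pools 1 to 4 and 9.11, 9.48, 9.24 and 8.95 in pools 5 to 8. Within an array the theca mean of the poor-donor pool differed from that of the good-donor pool by -0.22, 0.58, 0.76 and 0.17 on arrays 1 to 4. The theca mean thus had the sign of STAR on 3 of 4 arrays, as 29.1% of all tested probes had on at least 3. That share is of single probes, while the theca value is a mean of 11 genes. Its members did not all follow that mean. On array 3, where the mean differed by 0.76, CYP17A1 had a ratio of 0.08, INSL3 -0.30 and LHCGR -0.59. The other theca markers are not given one by one here. The endothelial mean also had it on 3 arrays, the granulosa, luteal and leukocyte means on 2 and the red cell mean on 1. The 6 luteal markers had a mean level of 8.28 to 8.37 in good-donor and 8.27 to 8.37 in poor-donor pools, with PRLR not above background in any pool. The part of other cell types in the STAR levels was not tested beyond these values. The remaining lists had mean levels of 6.41 to 6.68 for 7 endothelial markers, with PECAM1 and TIE1 above background in no pool, 6.74 to 7.36 for 8 leukocyte markers and 6.79 to 7.85 for the 3 of 4 red cell markers with a probe.

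Around the members, 5 lists of pathway genes were described, with 81 genes of which 54 were tested. None of the 54 passed the adjusted threshold in either direction, and none passed the looser one, which 0.321% of all tested probes passed. An unadjusted p under 0.05 was reached by 7 of them, against 5.98% of all tested probes. On all 4 arrays 5 genes were lower in poor donors, where 5.89% of all tested probes were, and 1 gene was higher, where 5.45% of all tested probes were. The median fitted difference over all tested probes was -0.000311 on the log2 scale, and 13040 of the 26132 were above 0. The counts above 0 given below for each list are to be read beside that share. Genes of a list share the pool pairs of the 4 arrays, so these counts are not independent results for each gene.

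Among genes of sterol delivery and storage, 8 of 10 had a fitted difference above 0, against 13040 of 26132 tested probes, and the median was 0.07. NPC1, which releases cholesterol from lysosomes, had ratios of 0.20, -0.02, 0.54 and 0.46 on arrays 1 to 4 and averaged 0.29 ± 0.25 (SD, n = 4; limma adjusted p = 0.822). LIPA, the lysosomal lipase that frees cholesterol from its esters, had -0.05, 0.14, 1.38 and 0.46 and a mean of 0.48 ± 0.63 (limma adjusted p = 0.827). Its ratio was highest on array 3, as that of STAR was, and leaving that array out gave 0.25. TSPO, STARD3 and VDAC1, proteins implicated in cholesterol movement to mitochondria, had means of 0.09 ± 0.17, 0.03 ± 0.14 and 0.09 ± 0.19.

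The later steroid enzymes and redox partners had 5 of 13 genes above 0 and a median of -0.04. CYB5R3, a cytochrome b5 reductase, had a mean of -0.22 ± 0.22 (SD, n = 4; limma adjusted p = 0.8294), and HSD17B4, a peroxisomal dehydrogenase, 0.16 ± 0.16 (limma adjusted p = 0.833). CYB5R3 had -0.09 without array 4, and HSD17B4 had 0.09 without array 4. CYP19A1, the aromatase, had ratios of -0.37, 0.89, -0.77 and -0.05 at the brightest of its 3 tested probes. This probe had the sign of STAR on 3 of 4 arrays, as did 29.1% of all tested probes on at least 3. On array 3 it was lower in the poor-donor pool in which STAR was higher. AKR1B1, a 20-alpha-hydroxysteroid dehydrogenase in cattle, had 0.79, -0.38, 0.27 and 0.32 at the brighter of its 2 tested probes. The other probes of these genes are not given here.

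Of the transcription factors of steroidogenic genes, 2 of 12 had a fitted difference above 0, against 13040 of 26132 tested probes, and the median was -0.13. NR5A2, the nuclear receptor that binds steroidogenic promoters in granulosa cells, had ratios of -0.24, -0.30, -0.24 and -0.24 and a mean of -0.25 ± 0.03 (SD, n = 4; limma adjusted p = 0.822). Its other 2 probes had means of -0.35 ± 0.33 and -0.15 ± 0.26. SREBF1, of lipid synthesis, had -0.91, 0.01, -0.52 and -0.72 and a mean of -0.54 ± 0.39 (limma adjusted p = 0.824), and -0.31 without array 1. NR5A1, the steroidogenic factor SF-1, had 0.19, 0.23, -0.11 and -0.34, with one sign in each dye orientation, as 22.9% of all tested probes had. None of these 3 genes shared the sequence of signs of STAR.

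Genes of gonadotrophin and cAMP signalling, the pathway that switches STAR on, had 4 of 13 above 0 and a median of -0.03. The list also holds genes that restrain cAMP, PDE4B among them, so this count has no single meaning for STAR. LHCGR, the receptor of luteinizing hormone, had ratios of -1.08, 0.21, -0.59 and 0.56 and was above background in 3 of 4 poor-donor pools. GNAS, the stimulatory G protein subunit, had -1.51, -1.58, 0.99 and 0.86 at its brightest probe, a mean of -0.31 ± 1.43 (SD, n = 4; limma adjusted p = 0.822), while its other 2 probes had means of 0.26 ± 0.46 and -0.11 ± 0.13. The fit with a dye term gave this GNAS probe an unadjusted p of 0.00660 (limma), which leaves out the change of sign between dye orientations. PDE4B, a phosphodiesterase that breaks down cAMP, had a mean of -0.23 ± 0.19 (limma adjusted p = 0.827).

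Receptors of progesterone and glucocorticoid had 3 of 6 genes above 0 and a median of -0.15. NR3C1, the glucocorticoid receptor on which the cortisol made by HSD11B1 acts, was lower on all 4 arrays at -0.21, -0.80, -0.29 and -0.28, with a mean of -0.40 ± 0.27 (SD, n = 4; limma adjusted p = 0.822). Without array 2 it had -0.25. PAQR8, a membrane progesterone receptor, had -0.12, -0.56, -0.46 and -0.06 and a mean of -0.30 ± 0.25 (limma adjusted p = 0.828), and -0.19 without array 2.

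**Figure D5:**
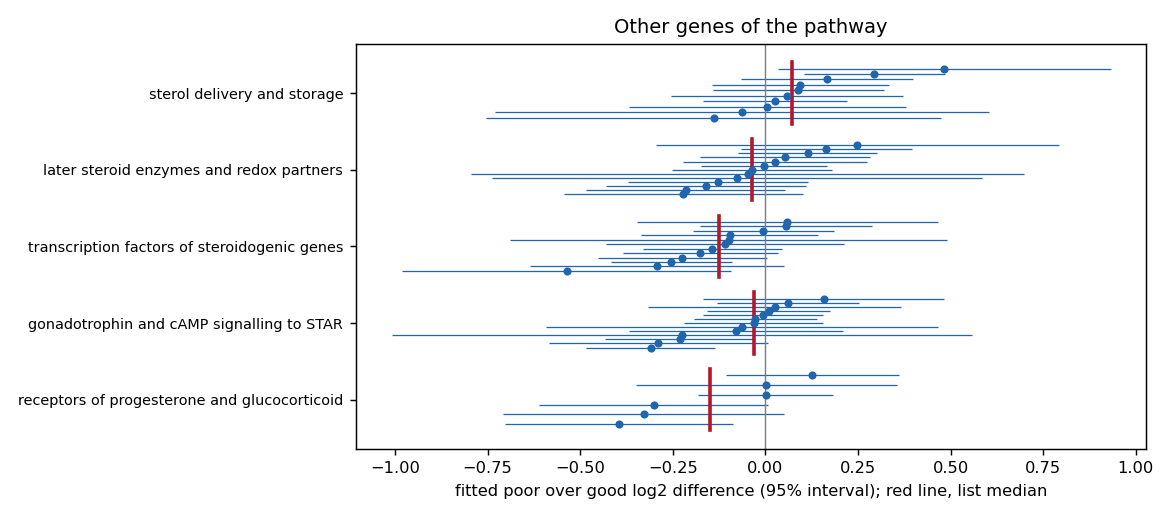
Fitted poor over good log2 differences (horizontal axis) with 95% intervals are drawn for the 54 tested pathway genes as blue points in 5 lists (vertical axis), with a red line at each list's median. List medians lie between -0.15 and 0.07, and no gene passed the adjusted threshold.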

How the data were processed

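Each deposited scanner table gives the intensity of every spot and of its surroundings, per the file headers, before any normalization (532 nm for Cy3, 635 nm for Cy5). The authors also deposited log2 ratios (normalization not given in the sources used here). RNA went through 2 rounds of linear amplification before labelling, per the labels' protocols. They correlated at 0.985 to 0.993 with the ratios below, had the direction poor over good on each array and medians of -9.92e-05 to 0.0026, and served as an alternative.

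Median spot intensities of 43794 probes were corrected with normexp (offset 50) and normalized by loess (span 0.3) in limma 3.58.1 under R 4.3.3. Above background means over the mean of 153 negative control spots by 2 SD. Tested were 26132 probes above background in every pool of at least 1 donor group, without 75 probes holding a spot marked as ignored. The median probe had an intensity of 49 to 58 (Cy5) or 121 to 164 (Cy3), and 64.3% to 72.7% of probes were above background in a pool. The number of arrays limits the precision. limma fitted the poor over good ratio with a probe-specific dye term across all tested probes (2 residual and 2.50 prior degrees of freedom), with Benjamini-Hochberg adjustment at 0.05. A looser threshold asked for an unadjusted p under 0.05 and a 1.5-fold difference. What separates the 2 dye orientations is taken up by the dye term, so the p-values leave it out. Levels per pool came from Aquantile normalization between arrays. The fit was tested on simulated data.

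Symbols came from the platform's annotation and were updated through the ARS-UCD2.0 gene table for 1524 of 21790 named probes. A gene outside the members is its brightest tested probe, except that each of the 6 genes closest to STAR is its probe closest to STAR. Named were all member probes, the 2 genes of smallest p in each list and the 6 genes closest to STAR over the pools. The other named pathway genes were chosen after their values were seen. Members and lists were chosen with earlier results of these data known. Promoter motifs were not searched here, and no probe or gene sequence was used here. The alternatives changed the background correction, the normalization, the spot summary, the dye term, the filter, the source of ratios and the fit, and left out each array in turn.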

Additional observations from a re-analysis of the deposited data

Results flagged for a closer look

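Of 84 groups of 4 values checked for a single distant value among 28 probes, 3 were marked by Dixon's criterion, where chance marks about 1 in 20. The poor over good ratio of NR5A2 (probe EMBV3_40939) was -0.30 on array 2, below the other 3 arrays at -0.24 each. The ratio of NR3C1 was -0.80 on array 2, below the other 3 arrays. The level of FSTL3 was 12.86 in pool 7, above the other 3 poor-donor pools.

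The ratio of GNAS at probe EMBV3_26901 had opposite signs on arrays 1 and 2 and on arrays 3 and 4, with a dye coefficient of 1.24 on the log2 scale (limma adjusted p = 0.123). Opposite signs of this kind were found in 22.9% of all tested probes.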

How the results depend on the processing

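With 0 member probes and 0 of all probes past the adjusted threshold, no alternative that was run gave a call, and the smallest adjusted p of a member probe was 0.370, for POR in the separate-channel fit. At an unadjusted p under 0.05 there were 1031 to 2776 of all probes and 0 to 5 member probes over the settings. The 5, of 10 tested, were found without array 2, where 2445 of all 26132 probes reached that level. A fit without an array has fewer residual degrees of freedom than the fit with all 4. Past the looser threshold the count of member probes was 0 to 1 when an array was left out, the 1 being HSD3B1 without array 1, FDX1 without array 2 and STAR probe EMBV3_18125 without array 4. Of all 26132 probes, 132, 288, 117 and 328 passed it without arrays 1, 2, 3 and 4, against 84 with all arrays. In the same fits the count was 0 to 1 for sterol delivery and storage (LIPA without array 4) and 0 to 1 for the transcription factors (SREBF1 without array 2).

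Leaving out each array in turn, the fitted difference ranged from -0.63 to 2.06 for STAR probe EMBV3_03849, from -0.76 to 2.03 for EMBV3_20036 and from -0.022 to 1.69 for EMBV3_18125. It ranged from -0.35 to 0.47 for CYP11A1, from -0.53 to 0.66 for HSD3B1, from -0.60 to 0.025 for FDX1, from -0.33 to 0.12 for SCARB1 and from -0.075 to 0.19 for HSD11B1 probe EMBV3_04455. In these fits POR kept its sign, at -0.34 to -0.17, as did HSD11B1 probe EMBV3_23153, at -0.27 to -0.09. The genes closest to STAR ranged from -0.68 to 1.82 for STEAP1, -1.04 to 1.69 for GFPT2, -0.91 to 2.23 for XIRP1, -0.91 to 2.52 for TIMP1, -0.89 to 1.85 for BMP2 and -0.62 to 1.56 for FSTL3. Each of these reversals follows from an alternative with fewer arrays, in which the lone array of a dye orientation weighs as much as both of the other.

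With all arrays, the sign turned for CYP11A1 with median centring (-0.017), for HSD3B1 with mean spot intensities (-0.040) and for the median over the tested member probes in both settings (-0.0040 and -0.012). Mean spot intensities also moved POR to -0.14, HSD11B1 probe EMBV3_23153 to -0.040, SCARB1 to -0.045 and STAR probe EMBV3_18125 to 0.46. The cause was not tested. With quantile normalization of all channels the same 6 genes were closest to STAR, and the gap between donor groups of HSD11B1 probe EMBV3_23153 was 0.04. Every ratio sets the 2 pools of 1 array against each other, so the fits are already paired by array, and the pools share no replicate numbers for a further block. Probes near background, those of HSD11B1 among them, have understated differences.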
